A study of Mus musculus with 6 samples.

Results

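A set of 9 genes was examined in RNA sequencing (RNA-seq) of mouse embryonic stem cells (mESCs). It consisted of 4 imprinted genes that lie inside an intron of another gene, the 4 host genes that contain them, and *Kcnk9*, which lies beside one of the hosts. The pairs, intronic gene first, were *Nap1l5* in *Herc3*, *Peg13* in *Trappc9*, *Mcts2* in *H13* and *Zrsr1* in *Commd1*. *Nap1l5* and *Peg13* were chosen by measured values, because both were low in the heterozygous deletion of these same libraries. They are therefore described without a test. The other 7 genes were selected by position or imprinting status, with earlier results of these data known. All 9 were found among the 55385 genes of the table. Of these, 8 passed a filter of at least 10 counts in at least 2 libraries, and *Kcnk9* did not. The filter kept 16951 genes in all, and 6 of the 9 genes were tested.

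The study deleted the *Wnt6* anchor, a region that takes part in a long-range Polycomb-associated chromatin loop, and asked how gene expression responded. Wild-type cells, cells with a heterozygous deletion and cells with a homozygous deletion were compared, with 2 libraries of each genotype. The methods state 3 biological replicates per condition, and the 6 labeled libraries were used. The wild-type line was G4, an F1 hybrid of a pair of inbred mouse strains, and all genotypes were grown with leukemia inhibitory factor (LIF) on CD1 feeder cells. Deletions were made by CRISPR-Cas9 with a pair of guides, and individual clones were picked. The sources used here do not say whether the libraries of a genotype came from different clones, so a difference between genotypes cannot be told apart from a difference between clones, and the tests measure only the spread between these libraries. Libraries were made from polyadenylated RNA. Reads of both parental alleles were counted together, so that none of the values below says which allele a transcript came from.

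Genomic imprinting is the expression of a gene from the allele of only one parent, set by DNA methylation that is laid down in the germ line and kept afterward. Several imprinted mouse genes are retrogenes, intronless copies of another gene's mRNA that landed inside an intron of a host, where they gained a promoter that is methylated in the oocyte and are expressed from the paternal allele. In such pairs the host usually carries no methylation at its own promoter, and transcription through the intronic gene can affect where host transcripts end. *Nap1l5*, *Mcts2* and *Zrsr1* are retrogenes of this kind. *Peg13* is a noncoding RNA whose promoter differs in methylation between the parental alleles and binds CTCF on the unmethylated allele.

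In the GRCm38 annotation, *Nap1l5* (ENSMUSG00000055430, chromosome 6, 58905233 to 58907076, minus strand) lies in intron 22 of *Herc3* (ENSMUSG00000029804, 58831465 to 58920398, plus strand), counted in its longest coding transcript. It is read in the opposite direction to its host. *Peg13* (ENSMUSG00000106847, chromosome 15, 72805600 to 72810324, minus strand) lies in intron 17 of *Trappc9* (ENSMUSG00000047921, 72589620 to 73061204), an intron of 102.154 kb, on the same strand. *Kcnk9* (ENSMUSG00000036760, 72501089 to 72546340, minus strand) ends the group on that chromosome, 43.279 kb from *Trappc9*. *Mcts2* (ENSMUSG00000042814, chromosome 2, 152687035 to 152687946, plus strand) sits on the same strand as its host in intron 4 of *H13* (ENSMUSG00000019188, 152669461 to 152708670), an intron of only 2.476 kb. *Zrsr1* (ENSMUSG00000044068, chromosome 11, 22972005 to 22976496, plus strand) lies in intron 1 of *Commd1* (ENSMUSG00000051355, 22896136 to 22982382, minus strand), on the opposite strand.

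**Figure D1:**
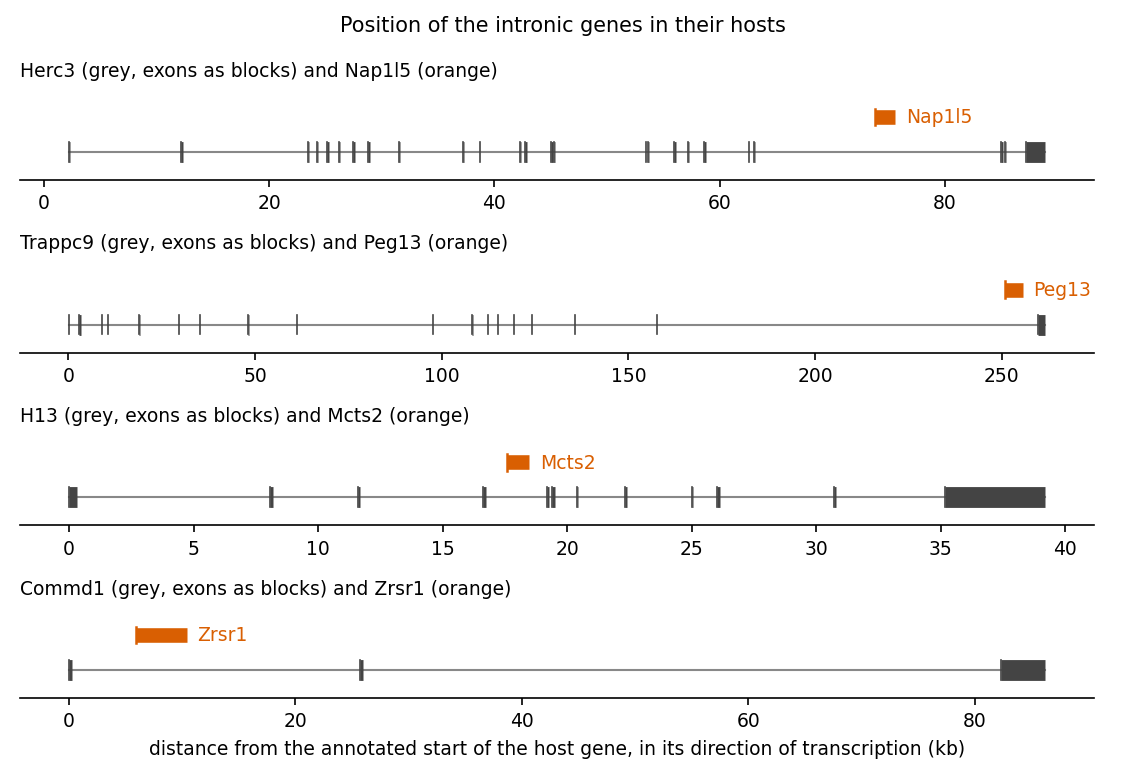
Map of the 4 host transcripts and their intronic genes, drawn to scale within each panel as distance in kb from the start of the host gene in its direction of transcription, with host exons as grey blocks. The intronic gene lies inside 1 intron of the host in each panel, with *Mcts2* in the shortest intron (2.476 kb) and *Peg13* in the longest (102.154 kb).

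The pairs differ in how cleanly reads can be assigned. Exons of *Nap1l5*, *Peg13* and *Mcts2* share 0 bases with exons of their hosts, whereas *Zrsr1* shares 412 bases with exons of other *Commd1* transcripts. Of the 50-base windows of *Zrsr1*, 7.13% also occur in transcripts of another gene, against 0% for *Nap1l5* and *Peg13* and 0.695% for *Mcts2*. Among the hosts the share was 9.5% for *Commd1*, 7.96% for *H13*, 1.86% for *Trappc9* and 0.735% for *Herc3*. The libraries were stranded, but whether strand was used in counting is not given in the sources used here. The values of *Zrsr1*, *Commd1* and *H13* are uncertain to that extent.

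The upstream sequences of the intronic genes are shown because the promoters of such genes are methylated in the oocyte. These sequences need not cover the whole methylated region of a gene. They come from the 250 bases before the RefSeq transcription start in GRCm38.p6, read 5′ to 3′ on the strand of the gene. For *Mcts2*, whose start lies further upstream in the GENCODE annotation, the first 137 of these bases are shown, which end before that start. The positions are *Nap1l5* at chr6:58907127-58907376, *Mcts2* at chr2:152686898-152687034 and *Zrsr1* at chr11:22971755-22972004. Capitals mark the hexamer TGCCGC, the core of the motif of ZFP57, a zinc-finger protein that binds it when methylated and keeps imprints. It was searched on both strands in the 250 bases before each RefSeq start.
Nap1l5: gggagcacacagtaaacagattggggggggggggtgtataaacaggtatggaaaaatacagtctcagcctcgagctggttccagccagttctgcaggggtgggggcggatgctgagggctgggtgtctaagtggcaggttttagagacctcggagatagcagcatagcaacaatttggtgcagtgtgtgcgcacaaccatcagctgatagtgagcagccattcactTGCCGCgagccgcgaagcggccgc
Mcts2: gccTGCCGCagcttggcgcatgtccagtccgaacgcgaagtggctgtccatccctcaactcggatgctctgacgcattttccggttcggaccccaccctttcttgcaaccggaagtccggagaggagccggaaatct
Zrsr1: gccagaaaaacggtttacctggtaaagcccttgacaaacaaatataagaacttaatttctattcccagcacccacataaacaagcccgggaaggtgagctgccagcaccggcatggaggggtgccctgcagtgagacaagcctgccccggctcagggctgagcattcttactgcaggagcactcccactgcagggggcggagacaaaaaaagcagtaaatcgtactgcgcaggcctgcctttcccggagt

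*Nap1l5* and *Mcts2* each held 1 copy of the hexamer in the 250 bases before the RefSeq start, and *Zrsr1* held 0. Among all 32851 promoters of the same length, 8.68% held at least 1 copy. The 3 host genes found in the promoter table, *H13*, *Herc3* and *Commd1*, held 0. The number of CpG dinucleotides in 250 bases was 20 for *Mcts2*, of which 12 are in the stretch shown, 10 for *Nap1l5* and 8 for *Zrsr1*, against a median of 6 over all promoters. Among the hosts it was 18 for *H13*, 4 for *Herc3*, and 14 and 13 for the 2 starts of *Commd1*. The *Herc3* stretch, chr6:58833450-58833699, lies inside the gene as annotated in GENCODE, which begins at 58831465. The *Commd1* stretch with 13, chr11:22972867-22973116, lies inside *Zrsr1*. A match of letters is a description of the sequence and no measure of binding or methylation. *Peg13*, *Trappc9* and *Kcnk9* were not found in the promoter table.

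The libraries held between 23813912 and 28964706 counts. Levels are given as CPM, with library totals adjusted for composition by TMM. A count of 3 corresponded to between 0.102 and 0.131 CPM and was taken as the floor of detection, which covers counting error only. *Wnt6* itself had 11 and 13 counts in wild-type cells, 6 and 4 in the heterozygous deletion, and 0 and 0 in the homozygous deletion, so the counts followed the labels. All 10 pluripotency markers passed the filter, and *Pou5f1* averaged 982 CPM in wild-type cells, 902.8 in heterozygous cells and 1020 in homozygous cells. Feeder cells are commonly embryonic fibroblasts, and fibroblast markers were also present. Summed over 26 fibroblast genes, the level was 4058 to 4130 CPM in the wild-type libraries, 3155 to 3182 in the heterozygous libraries and 2373 to 2399 in the homozygous libraries, and none of the 26 was at 0 in every library. In bulk RNA, fewer cells of a type and less RNA per cell cannot be told apart, and RNA of the mESCs is not separated from RNA of the feeder cells.

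In wild-type mESCs the 9 genes covered a wide range of levels. Scaled to exon length, as CPM per kb, *Mcts2* was highest at 16.9 ± 1.345 (SD, n = 2), and its host *H13*, which encodes signal peptide peptidase, followed at 9.49 ± 0.392 (SD, n = 2). *Commd1* was at 5.50 ± 0.0459 (SD, n = 2). *Herc3* at 3.52 ± 0.0103 and *Zrsr1* at 3.47 ± 0.0740 (SD, n = 2 each) did not differ beyond the spread of *Zrsr1*. *Trappc9* was at 2.47 ± 0.00131 and *Peg13* at 1.42 ± 0.0341 CPM per kb (SD, n = 2 each). *Nap1l5* was the lowest gene that passed the filter, at 0.513 ± 0.00504 CPM per kb (SD, n = 2). Per unit of exon length, an intronic gene was thus above its host in 1 of the 4 pairs, *Mcts2* in *H13*. Among the tested genes with a known length, *Mcts2* was above 80.8% of them, *Peg13* above 34.8% and *Nap1l5* above 19.9%.

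*Kcnk9*, a potassium channel of the two-pore family that is expressed from the maternal allele in brain, was at or below the floor in all libraries. It had 3 and 1 counts in wild-type cells, 1 and 2 in heterozygous cells, and 0 and 2 in homozygous cells, and no fold was computed.

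*Nap1l5*, a member of the nucleosome assembly protein 1 family best known from brain, was present in wild-type cells and nearly undetected in the heterozygous deletion. It was counted 28 and 24 times in the wild-type libraries, 0 times and 1 time in the heterozygous ones, and 28 and 35 times in the homozygous ones. As CPM these were 0.946 ± 0.00929, 0.0188 ± 0.0266 and 1.28 ± 0.0865 (SD, n = 2 each). Both heterozygous libraries lay below the floor of 3 counts, and both homozygous libraries lay above both wild-type libraries on the CPM scale. Set against that floor in each heterozygous library, *Nap1l5* was at least 8.11-fold lower in heterozygous than in wild-type cells, and homozygous cells were at least 11.01-fold higher than heterozygous ones. Homozygous cells differed from wild-type cells by 0.44 ± 0.296 (SE) on the log2 scale. These are descriptions, since low heterozygous counts were the reason for including the gene.

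*Peg13*, the paternally expressed noncoding RNA, was lowered in the same cells but stayed well above the floor. Wild-type libraries held 200 and 168 counts, heterozygous ones 43 and 35, and homozygous ones 163 and 207. As CPM these were 6.69 ± 0.161, 1.52 ± 0.292 and 7.53 ± 0.592 (SD, n = 2 each). The heterozygous libraries lay far below all 4 others. *Peg13* was 77.3% lower in the heterozygous deletion than in wild-type cells, a log2 fold change of -2.14 ± 0.166 (SE), and its level in the homozygous deletion was 4.97 times that in the heterozygous deletion, a log2 fold change of 2.31 ± 0.165 (SE). Homozygous and wild-type cells differed by 0.17 ± 0.122 (SE) on the log2 scale, and by 0.088 without homozygous replicate 2. With any 1 library left out, the heterozygous against wild-type value ranged from -2.34 to -1.95. *Peg13*, too, was included for its low heterozygous level and is given without a test.

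**Figure D2:**
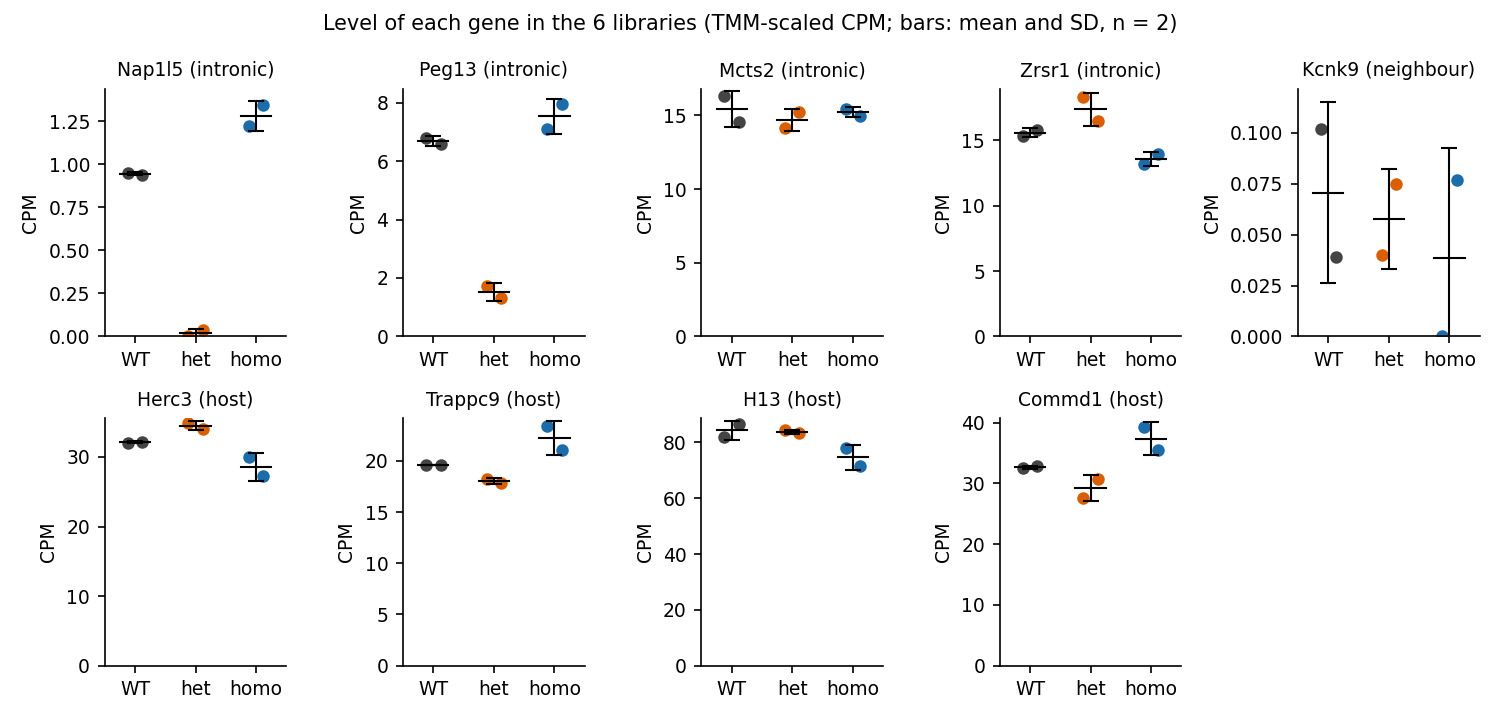
CPM of the 9 genes, 1 panel per gene, with a point for each of the 6 libraries and bars for the mean and SD of each genotype (n = 2); WT is wild-type, het heterozygous and homo homozygous. *Nap1l5* and *Peg13* are low in both heterozygous libraries, while *Mcts2* overlaps between all 3 genotypes.

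Summed fibroblast markers were lowest in the homozygous libraries, where *Peg13* averaged 7.53 CPM and *Nap1l5* 1.28 CPM. In the heterozygous deletion, 17 of 24 tested fibroblast markers fell against wild-type, with a median log2 fold change of -0.459. In that comparison 5.14% of all tested genes were called. Pluripotency markers were also lower there, with 5 of 10 fallen and a median of -0.175, and their summed level was 2247 to 2287 CPM in the heterozygous libraries, 2521 to 2589 in wild-type libraries and 2528 to 2698 in homozygous libraries. The part of either marker group in the values of *Peg13* and *Nap1l5* was not tested.

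Among the 6 tested genes, none was called between the heterozygous deletion and wild-type at an adjusted p below 0.05 by the edgeR quasi-likelihood test, where 5.14% of all tested genes were called. DESeq2 also called 0, and 1 of the 6, *Commd1*, had an unadjusted p below 0.05. Thus the 2 intronic genes that were low in heterozygous cells lay inside hosts whose gene counts showed small differences. Those counts pool all transcripts of a host. Of the annotated transcripts, 10 of 12 for *Herc3* and 4 of 7 for *Trappc9* end before the intronic gene. A shift between shorter and longer host transcripts was not tested. *Herc3*, an E3 ubiquitin ligase with a HECT domain, was at 32.1 and 32.2 CPM in wild-type libraries, 34.9 and 34.0 in heterozygous libraries, and 30.02 and 27.2 in homozygous libraries. Both heterozygous libraries lay above both wild-type libraries, by a log2 fold change of 0.10 ± 0.0647 (SE), with an edgeR adjusted p of 0.48. *Trappc9*, a subunit of the TRAPP II complex of vesicle transport, was at 19.6 CPM in both wild-type libraries, at 18.2 and 17.8 in heterozygous libraries, and at 23.4 and 21.1 in homozygous libraries. Its heterozygous against wild-type difference was -0.12 ± 0.0781 (SE) on the log2 scale, with an edgeR adjusted p of 0.489.

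Both hosts differed between the deletions, a comparison in which 25.8% of all tested genes were called. *Herc3* was lower in homozygous cells, with a log2 fold change against heterozygous cells of -0.27 ± 0.0665 (SE) and an edgeR adjusted p of 0.00497. Its value lost the call without homozygous replicate 2, where the edgeR adjusted p was 0.0623. *Trappc9* was higher by 0.30 ± 0.078 (SE), with an edgeR adjusted p of 0.00756. That call was lost without heterozygous replicate 2 (edgeR adjusted p = 0.0536) and without homozygous replicate 1 (edgeR adjusted p = 0.0866). In the homozygous deletion against wild-type, neither host passed the threshold: *Herc3* differed by -0.17 ± 0.0666 (SE, edgeR adjusted p = 0.0768) and *Trappc9* by 0.18 ± 0.0765 (SE, edgeR adjusted p = 0.106). The *Herc3* difference was called on total counts alone (edgeR adjusted p = 0.0181) and without homozygous replicate 1 (0.029), and the *Trappc9* difference without homozygous replicate 2 (edgeR adjusted p = 0.0434). The *Herc3* value was -0.098 without homozygous replicate 2, and the *Trappc9* value 0.11 without homozygous replicate 1.

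Counts of an intronic gene can be set against those of its host in the same library, a ratio that no scaling between libraries affects. For every 100 *Herc3* reads, the wild-type libraries held 2.97 and 2.92 *Nap1l5* reads, the heterozygous libraries 0 and 0.11, and the homozygous libraries 4.07 and 4.94. For every 100 *Trappc9* reads, the wild-type libraries held 34.7 and 33.5 *Peg13* reads, the heterozygous libraries 9.47 and 7.37, and the homozygous libraries 30.4 and 37.7. The *Peg13* ratio of heterozygous cells was thus 0.247 of the wild-type mean, while the homozygous libraries lay on either side of both wild-type libraries. With 2 libraries against 2, an exact two-sided permutation test cannot go below p = 0.333, so that the ratios are given without one.

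**Figure D3:**
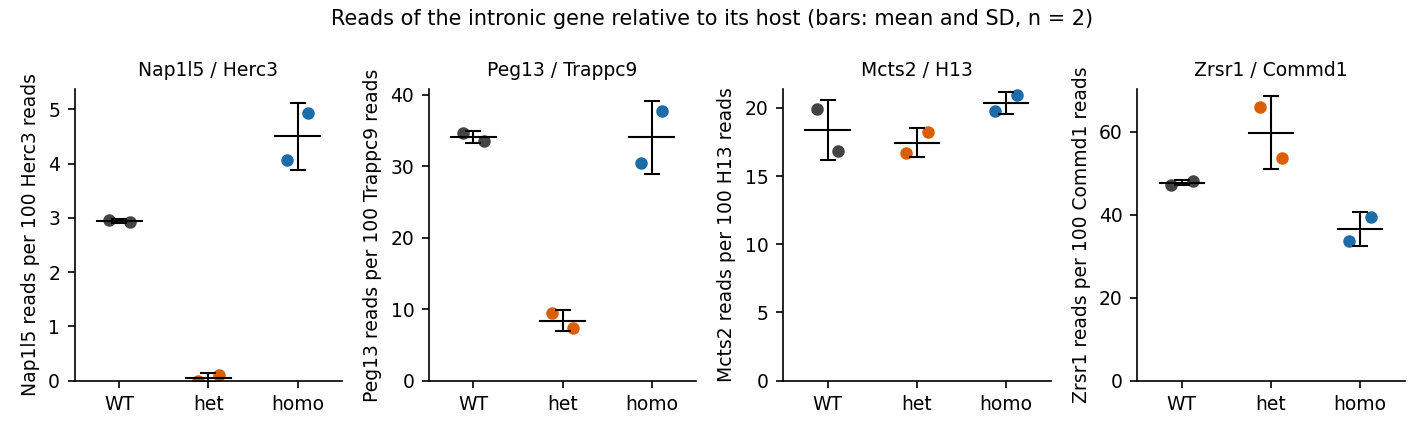
Reads of each intronic gene per 100 reads of its host, 1 panel per pair, with a point for each of the 6 libraries and bars for the mean and SD of each genotype (n = 2). *Peg13* falls to 9.47 and 7.37 and *Nap1l5* to 0 and 0.11 in the heterozygous libraries, whereas the *Zrsr1* ratio is highest there.

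*Mcts2* and *H13* did not share this pattern. *Mcts2*, a retrogene copy of the translation factor gene *Mcts1*, was at 16.3 and 14.6 CPM in wild-type libraries, 14.1 and 15.2 in heterozygous libraries, and 15.4 and 15.0 in homozygous libraries. The 3 genotypes overlapped. Its log2 difference was -0.074 ± 0.0871 (SE) for the heterozygous and -0.024 ± 0.0873 (SE) for the homozygous deletion against wild-type, with edgeR adjusted p of 0.753 and 0.883, and 0.050 ± 0.0888 (SE) between the deletions, with an edgeR adjusted p of 0.729.

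*H13* was at 81.9 and 86.8 CPM in wild-type libraries, 84.4 and 83.4 in heterozygous libraries, and 77.9 and 71.6 in homozygous libraries. The heterozygous values lay between the wild-type values, and both homozygous values lay below all others. *H13* fell in the homozygous deletion against wild-type, the 1 call among the 6 tested genes in that comparison, in which 21.4% of all tested genes were called. The log2 fold change was -0.17 ± 0.0527 (SE), with an edgeR adjusted p of 0.0226. It was also lower than in the heterozygous deletion, by -0.17 ± 0.053 (SE), with an edgeR adjusted p of 0.025. The call against wild-type was lost with DESeq2 (adjusted p = 0.086), without wild-type replicate 2 (edgeR adjusted p = 0.258) and without homozygous replicate 2 (log2 fold change -0.11, edgeR adjusted p = 0.192). The call against the heterozygous deletion was lost with DESeq2 (adjusted p = 0.104) and, in edgeR, without either heterozygous replicate (adjusted p = 0.11 and 0.0763) or homozygous replicate 2 (log2 fold change -0.11, adjusted p = 0.202). For every 100 *H13* reads there were 19.9 and 16.8 *Mcts2* reads in wild-type libraries, 16.7 and 18.2 in heterozygous libraries, and 19.8 and 20.9 in homozygous libraries, with overlap of each deletion with wild-type. The deletions did not overlap with each other, a description of 2 libraries each. The mean ratio in homozygous cells was 1.16 times that in heterozygous cells.

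*Zrsr1* and *Commd1* moved in opposite directions between the deletions. *Zrsr1*, which encodes a relative of the small subunit of the splicing factor U2AF, was at 15.3 and 15.8 CPM in wild-type libraries, 18.3 and 16.5 in heterozygous libraries, and 13.2 and 13.98 in homozygous libraries. *Commd1*, whose protein acts in copper transport and in endosomal recycling, was at 32.5 and 32.8 CPM in wild-type libraries, 27.7 and 30.7 in heterozygous libraries, and 39.3 and 35.4 in homozygous libraries. The 3 genotypes did not overlap for either gene, with heterozygous libraries highest for *Zrsr1* and lowest for *Commd1*. How many of all tested genes separate in this way was not counted, so the separation is a description only.

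Between the homozygous and the heterozygous deletion, *Zrsr1* fell by 0.35 ± 0.0866 (SE) on the log2 scale, with an edgeR adjusted p of 0.00527, and the call was lost only without heterozygous replicate 1 (edgeR adjusted p = 0.0771) among 13 alternatives. *Commd1* rose by 0.35 ± 0.0702 (SE), with an edgeR adjusted p of 0.000881, and was called under all 13 alternatives. Against wild-type, neither gene passed the threshold. The heterozygous differences were 0.16 ± 0.0835 (SE) for *Zrsr1* and -0.16 ± 0.0703 (SE) for *Commd1*, with edgeR adjusted p of 0.37 and 0.254. Without heterozygous replicate 1 they were 0.083 and -0.088, and without heterozygous replicate 2 they were 0.23 and -0.24. The homozygous differences were -0.19 ± 0.0872 (SE) and 0.19 ± 0.0688 (SE), with edgeR adjusted p of 0.129 and 0.0519. The last value was 0.12 without homozygous replicate 1. It was near the threshold and was called in 5 of 13 alternatives, with adjusted p from edgeR or DESeq2 between 0.0121 and 0.333. The calls were gained without either heterozygous replicate (edgeR adjusted p = 0.0453 and 0.0462), without homozygous replicate 2 (0.0121), with only the 4 libraries compared (0.0482) and with the size factors of DESeq2 (0.0461).

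Read against its host, *Zrsr1* had 47.3 and 48.2 reads per 100 *Commd1* reads in wild-type libraries, 66.0 and 53.7 in heterozygous libraries, and 33.7 and 39.4 in homozygous libraries. The genotypes did not overlap, again as a description of 2 libraries each. The mean ratio in homozygous cells was 0.611 of that in heterozygous cells. *Zrsr1* and *Commd1* lie on opposite strands with 412 shared exon bases, and how reads in them were assigned was not tested.

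In all, 5 of the 6 tested genes differed between the homozygous and the heterozygous deletion, 2 higher (*Commd1* and *Trappc9*) and 3 lower (*H13*, *Herc3* and *Zrsr1*), of which DESeq2 called 4. Their sizes were modest, from -0.35 to 0.35 on the log2 scale, beside 25.8% of all genes called in that comparison. All 3 comparisons draw on the same 6 libraries, and the heterozygous libraries enter 2 of them. In the same comparison 20 of 24 fibroblast markers fell and 1 rose, with a median log2 fold change of -0.575, and 8 of 10 pluripotency markers rose. *Mmp2*, the fibroblast marker that rose, and *Zfp42*, the pluripotency marker with the highest value (0.527), lie on chromosome 8. The median of all 890 tested genes on chromosome 8 was 0.51. Between homozygous and wild-type cells, where 21.4% of all tested genes were called, 21 of 24 fibroblast markers fell, with a median of -1.05. Their part in the differences of *H13*, *Herc3*, *Zrsr1*, *Trappc9* and *Commd1* was not tested.

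**Figure D4:**
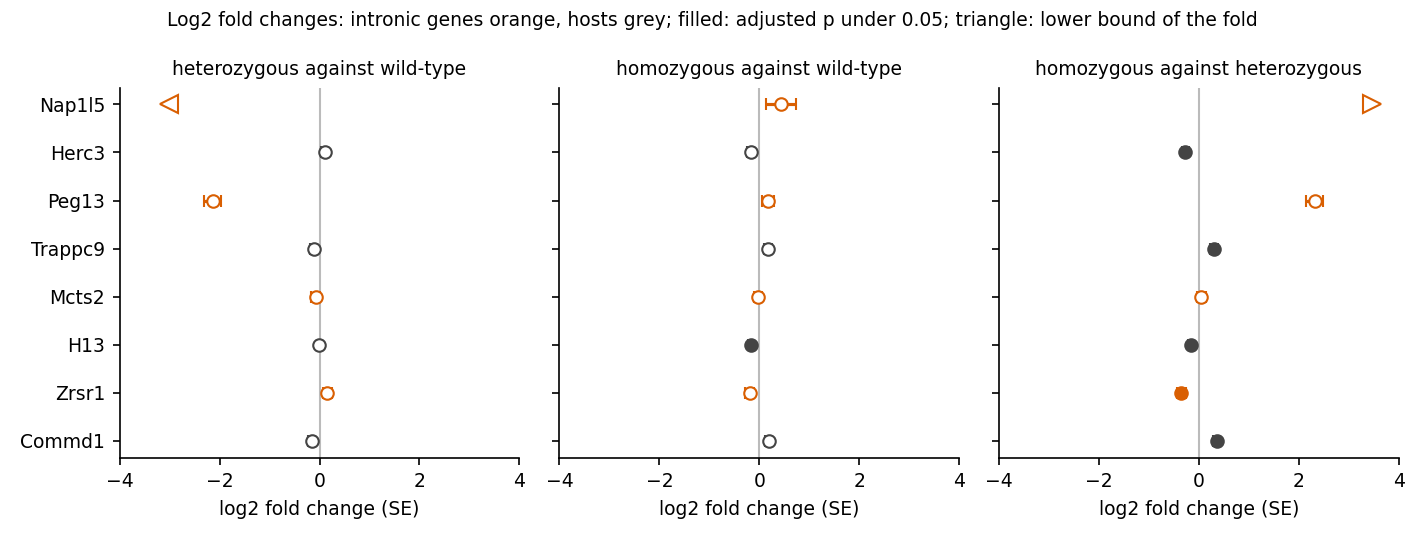
Log2 fold changes of the members in the 3 comparisons, with bars of 1 standard error. Filled symbols mark an adjusted p below 0.05; *Nap1l5* and *Peg13* have no test and are open throughout, and triangles mark lower bounds of the size for *Nap1l5* (8.11-fold and 11.01-fold). The tested genes stay between -0.35 and 0.35, while *Peg13* is at -2.14 and 2.31.

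Genes near the intronic genes were examined to see how far along the chromosome differences reached. In all, 36 other tested genes start within 500 kb of 1 of the 4 intronic genes, of which 23 lie around *Mcts2*. In the heterozygous deletion against wild-type 3 of the 36 were lower and 0 higher, where 5.14% of all tested genes were called. All 3 lie around *Mcts2*, as do 23 of the 36. Among the 3 were *Sox12*, a transcription factor gene (-0.21 ± 0.0502 SE, edgeR adjusted p = 0.014), and *Foxs1*, a forkhead gene (-0.98 ± 0.235, 0.016). None of the 3 tested genes around *Nap1l5* and none of the 2 around *Peg13* was called in that comparison by edgeR or by DESeq2, and 0 and 1 of them had an unadjusted p below 0.05.

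Between homozygous and wild-type cells 6 of the 36 neighbors were higher and 5 lower, beside 21.4% of all tested genes called. Around *Nap1l5*, *Fam13a* fell by 1.0 (SE 0.31, edgeR adjusted p = 0.0256), from 41 and 40 to 17 and 19 counts, and *Abcg2*, a transporter gene, rose by 0.21 (SE 0.0446, edgeR adjusted p = 0.00183). Around *Peg13*, *Ago2*, which encodes an Argonaute protein, rose by 0.18 (SE 0.0471, edgeR adjusted p = 0.00985). Around *Zrsr1*, *Cct4*, *Xpo1* and *Usp34* rose, with log2 fold changes of 0.176, 0.138 and 0.4, while *Zrsr1* itself was not called. Around *Mcts2*, *Id1* rose (0.298) and *Foxs1* (-1.73), *Dusp15* (-1.76), *Pdrg1* (-0.447) and *Rbck1* (-0.168) fell. Between the deletions 5 neighbors were higher, among them *Abcg2* (0.266), *Zcchc3* (0.169), *Cct4* (0.229) and *Usp34* (0.353), and *Pdrg1* (-0.333) was lower, beside 25.8% of all tested genes called.

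**Figure D5:**
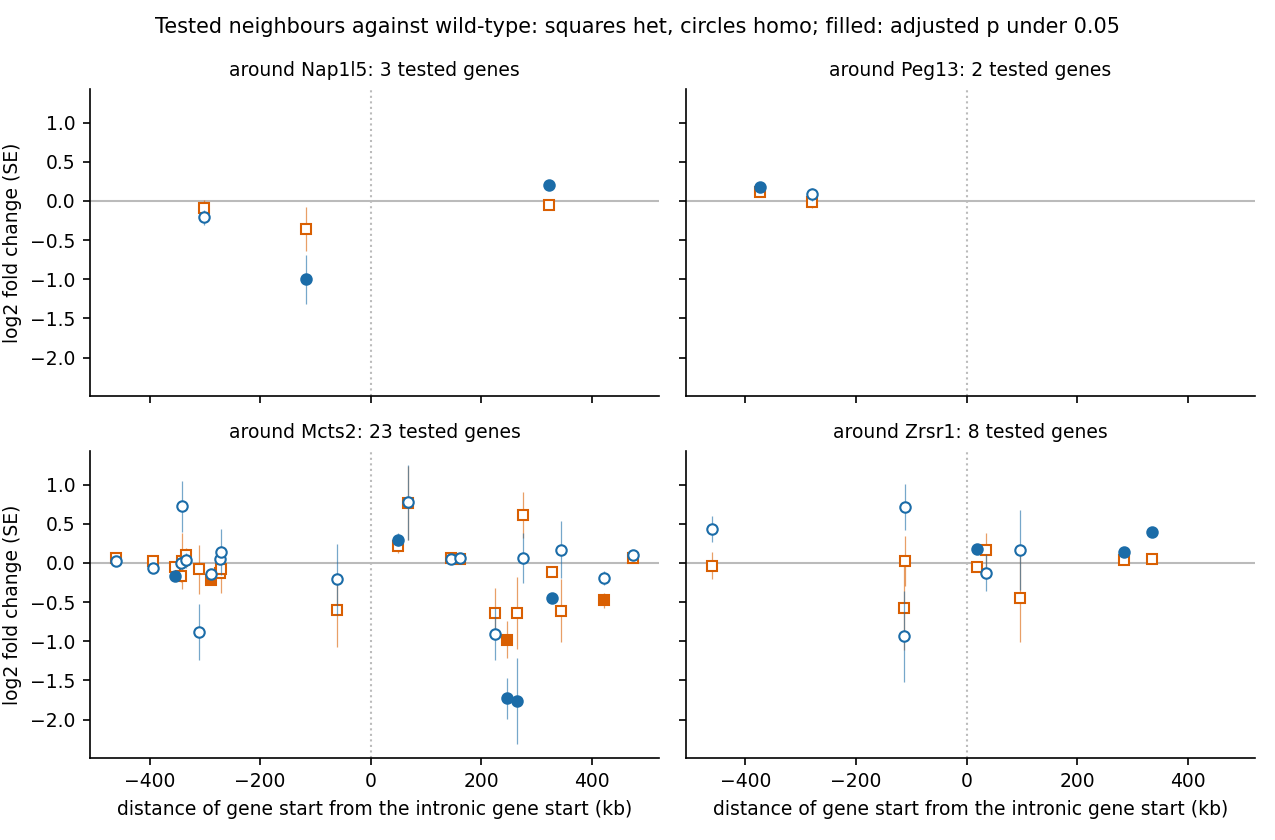
Log2 fold changes against wild-type (bars, SE) of tested genes by the distance in kb of their start from that of each intronic gene, with squares for the heterozygous and circles for the homozygous deletion, filled at an adjusted p below 0.05. None of the 2 neighbors of *Peg13* and the 3 of *Nap1l5* was called in the heterozygous deletion against wild-type. In that comparison 5.14% of all tested genes were called.

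Of a list of 5 genes of the *Peg13* domain, which includes *Ago2* again, edgeR and DESeq2 called 0 in the heterozygous deletion against wild-type. In that comparison edgeR called 5.14% of all tested genes, and 2 of the 5 had an unadjusted edgeR p below 0.05. Of the 5, *Ago2* alone passed between homozygous and wild-type cells, beside 21.4% of all tested genes called. *Dennd3* was lower in homozygous than heterozygous cells, at -0.52 ± 0.129 (SE) on the log2 scale, with an edgeR adjusted p of 0.00508. Between the deletions 25.8% of all tested genes were called.

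Relatives and partners of the 9 genes were read from 7 lists, with 40 tested genes. In the heterozygous deletion against wild-type none of the 40 was called by edgeR or DESeq2, beside 5.14% of all tested genes called by edgeR. Of the 40, 7 had an unadjusted edgeR p below 0.05, and the median log2 fold change of the 40 was -0.0148. The 4 relatives of *Nap1l5* in the NAP1 family had a median of 0.172 there. In homozygous cells against wild-type 6 of the 40 were higher and 4 lower, and between the deletions 7 were higher and 3 lower. These 10 of 40 in either comparison stand beside 21.4% and 25.8% of all tested genes. Of 13 other TRAPP subunits, *Trappc11* (0.53 ± 0.0462 SE, edgeR adjusted p = 4.28e-08), *Trappc5* (0.48 ± 0.0626, 1.06e-05) and *Trappc2l* (0.38 ± 0.0836, 0.00241) rose in the homozygous deletion and *Trappc1* fell (-0.18 ± 0.0644, 0.0472). Those that rose lie on chromosome 8, where the median of all 890 tested genes was 0.393, and *Trappc9* on chromosome 15 was not called.

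The HERC ligases *Herc1* and *Herc2* rose in the homozygous deletion against wild-type by 0.35 and 0.31, with edgeR adjusted p of 0.00103 and 0.0009, and *Herc6* fell by 1.10 (edgeR adjusted p = 0.0492) from 25 and 21 to 7 and 12 counts. *Eif2d*, a translation factor related to MCTS1, fell by 0.18 (edgeR adjusted p = 0.00714). *Sppl2b*, an intramembrane protease related to *H13*, fell by 0.35 (edgeR adjusted p = 0.0218), and *Commd10* rose by 0.22 (edgeR adjusted p = 0.0218). *Nap1l2* was called only between the deletions, lower in the homozygous deletion by -0.46 ± 0.124 (SE, edgeR adjusted p = 0.0101). The 4 genes of the U2AF family, relatives and partners of *Zrsr1*, gave 0 calls in each comparison by edgeR or DESeq2. They also gave 0 at an unadjusted edgeR p below 0.05. Of all tested genes, edgeR called 5.14% (heterozygous against wild-type), 21.4% (homozygous against wild-type) and 25.8% (homozygous against heterozygous).

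Imprinted genes elsewhere in the genome were read to place *Peg13* and *Nap1l5* among genes of the same parental class. Both are expressed from the paternal allele. Of 23 other paternally expressed genes tested, 4 rose and 0 fell in the heterozygous deletion against wild-type, where 5.14% of all tested genes were called, with a median log2 fold change of 0.187, beside 7.69e-06 for all genes tested. Those that rose were *Igf2* (0.70 ± 0.177 SE, edgeR adjusted p = 0.0235), *Peg10* (0.59 ± 0.0423, 3.96e-08), *Nnat* (0.49 ± 0.067, 8.87e-05) and *Sfmbt2* (0.36 ± 0.048, 7.84e-05). *Peg10* had 11614 and 10093 counts in wild-type libraries against 14558 and 16055 in heterozygous libraries. Of 22 maternally expressed genes tested, 1 rose and 0 fell: *H19*, by 0.35 ± 0.0568 (SE), with an edgeR adjusted p of 0.000603. Against wild-type, no listed imprinted gene outside the set was called lower in heterozygous cells. Of all 16951 tested genes, 493 were called lower in that comparison. Between the deletions, listed imprinted genes were called in both directions, as given below.

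Comparing homozygous with wild-type cells, 6 of the 23 paternally expressed genes rose and 2 fell, beside 21.4% of all tested genes called. *Kcnq1ot1* (0.63 ± 0.163 SE, edgeR adjusted p = 0.00835) and *Igf2* (0.60 ± 0.181, 0.0228) had the highest values among those called, and *Peg12* (-0.69 ± 0.16, 0.00376) and *Inpp5f* (-0.19 ± 0.0666, 0.0442) fell. *Inpp5f* is itself the host of an imprinted transcript, which has no row of its own in the table. Of the maternally expressed genes, 7 rose and 5 fell, with *H19* (0.97 ± 0.0551, 1.29e-10) and *Grb10* (0.76 ± 0.0404, 5.51e-11) the highest and *Tfpi2* (-0.85 ± 0.244, 0.0161) and *Ascl2* (-0.72 ± 0.205, 0.0154) the lowest of those called. Between the deletions 3 paternally expressed genes were higher and 7 lower, and 8 maternally expressed genes were higher and 6 lower, beside 25.8% of all tested genes called.

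A list of genes of DNA methylation and of imprint maintenance was also read, and not all of them act in keeping imprints. Of 18 tested, 2 fell in the heterozygous deletion against wild-type, the DNA methyltransferase gene *Dnmt3a* (-0.18 ± 0.0422 SE, edgeR adjusted p = 0.0118) and its cofactor gene *Dnmt3l* (-0.14 ± 0.041, 0.0465), and 0 rose. Beside them, 5.14% of all tested genes were called. In the homozygous deletion 6 rose and 2 fell, beside 21.4% of all tested genes, and between the deletions 8 were higher and 1 lower, beside 25.8%. *Zfp57*, the gene of the protein whose motif is shown above, had nearly the same value in both deletions against wild-type, -0.19 ± 0.0576 (SE, edgeR adjusted p = 0.0688) in heterozygous cells and -0.17 ± 0.0577 (0.0397) in homozygous cells, and differed by 0.017 ± 0.0582 between them (0.867). *Ctcf* (0.36 ± 0.0406, 1.63e-06), which lies on chromosome 8, and *Tet2* (0.33 ± 0.0584, 0.00031) were the highest of those called in the homozygous deletion.

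Genes on other chromosomes whose levels most resembled *Peg13* and *Nap1l5* over the 6 libraries were found by Pearson's correlation of log2 CPM, as a description over points that share their genotypes. For *Peg13* they were *Pck2* (0.99), *Ndc80* (0.987) and *Notum* (0.987), out of 13352 candidates. For *Nap1l5* they were *Pck2*, *Aldh1l2* and *Hormad1* (0.994 each), out of 13231. *Peg13* and *Nap1l5* themselves gave 0.979, but both were chosen for low heterozygous values, so a high value follows from that choice. The likeness was one of shape and not of size. *Pck2*, a mitochondrial enzyme of gluconeogenesis, differed by -0.274 on the log2 scale between heterozygous and wild-type cells, *Ndc80* by -0.0729 and *Notum* by -0.698, where *Peg13* differed by -2.14.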

How the data were processed

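The authors deposited raw counts, whole numbers of reads per gene without normalization, for 55385 genes in 6 libraries of polyadenylated RNA, and 0 sample columns were left unmapped. The submitters' processing notes name Trimmomatic 0.39, STAR 2.6.1d, SAMtools 1.9, featureCounts 1.6.4 and DESeq2 1.22.2, with builds mm10 and GRCm38. The annotation release and the strand setting of the counting are not given in the sources used here. Totals ranged from 23813912 to 28964706 counts. Genotype and replicate number came from the sample titles.

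A gene was kept where 2 or more libraries had 10 or more counts (16951 genes). These were scaled with TMM and fitted in edgeR 4.0.16 (limma 3.58.1, R 4.3.3) in 1 quasi-likelihood model of 3 genotypes over 6 libraries. Standard errors come from that fit, and p-values were Benjamini-Hochberg adjusted over all genes tested, with calls at an adjusted p below 0.05. Where a genotype lay at or below 3 counts in each library, a fold was given as a bound against 3 counts per library. The procedure was tested on simulated data with known changes in 200 genes.

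The members and all lists were chosen with earlier results of these data known. Beside the 9 members, the text names called neighbors within 500 kb, called list genes with the 2 lowest and 2 highest log2 fold changes of a list, and the 3 most similar genes of *Peg13* and *Nap1l5* among genes of at least 1 CPM on average, with a prior count of 2. *Wnt6* and *Pou5f1* were given in addition. The values of 1 called neighbor are not reported here. Positions came from GENCODE M21, and upstream sequences from RefSeq, where 6 of the 9 members were found.

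As alternatives, total counts or DESeq2 size factors replaced TMM, filterByExpr or no filter replaced the filter, DESeq2 1.42.0 replaced edgeR, and fits were repeated with only the libraries compared, the replicate number as a block, and each library left out in turn. Python 3.11.15 with pandas 2.3.3, scipy 1.17.1 and matplotlib 3.10.9 made summaries and figures.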

Additional observations from a re-analysis of the deposited data

How the results depend on the processing

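With 2 libraries per genotype, left-out fits rest on a lone library of 1 genotype, assumed to vary like the others. Of 234 alternative values of the tested genes, 208 kept their direction and their side of the threshold, 11 lost a call, 8 gained one and 7 changed sign. All 7 were values of *H13* or *Mcts2* near 0. On total counts only, *H13* in the heterozygous deletion against wild-type came to 0.0038 and *Mcts2* between the deletions to -0.016. With 1 library left out, *Mcts2* ranged from -0.15 to 0.012 (heterozygous against wild-type), from -0.091 to 0.062 (homozygous against wild-type) and from -0.0011 to 0.10 (homozygous against heterozygous), and *H13* from -0.049 to 0.036 (heterozygous against wild-type). The cause was not tested.

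Over all genes, DESeq2 called 476 (heterozygous against wild-type), 2243 (homozygous against wild-type) and 2770 (homozygous against heterozygous), against 871, 3633 and 4371 with edgeR. With 1 library left out, edgeR called from 351 to 1302, from 2115 to 3604 and from 2903 to 4339. The first count was 392 and 352 without wild-type replicates 1 and 2 and 351 without heterozygous replicate 2, the second 2115 and 2332 without wild-type replicates 1 and 2, and the third 2903 without heterozygous replicate 1. On total counts only, 31.9% of the calls between homozygous and wild-type cells were higher, against 50.8% with TMM, and 29.4% against 50.1% between the deletions. The replicate block gave 816, 3447 and 4150 calls and changed no call of a tested member. Over all tested genes, deviations of same-numbered libraries correlated at 0.0261, -0.0944 and 0.00865. Whether same-numbered libraries share a batch was not tested. At this depth *Kcnk9* and heterozygous *Nap1l5* could be read only as at or below 3 counts.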
